A study of Quercus robur with 12 samples.

Results

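The oak root miRNA table held 75 rows, and 23 of them were unannotated miRNAs of 20 to 22 nt that the study listed by their sequence rather than by a family name. They were chosen as every row that carried its own sequence as a name, with 20, 21 or 22 letters in it. The other rows were 51 known miRNAs and 1 sequence of 16 nt. The values were small RNA sequencing read counts from the meristematic zone at the root tips of pedunculate oak (Quercus robur) seedlings. Seedlings were 1 year old and had 8 weeks of acclimatization in root observation chambers. Lateral roots under drought stress (LR-DS) and taproots under drought stress (TR-DS) came from plants kept for 4 weeks at soil moisture of 25% of the control. Lateral roots (LR-CT) and taproots (TR-CT) of irrigated plants were the controls. Each of the 4 groups had 3 biological replicates, each pooled from 10 to 15 root tips. The study raised seedlings both in containers and directly from sown acorns, the labels do not tell which library came from which, and cultivation therefore cannot be told apart from the groups. The deposited table holds miRNAs alone, so the root type could not be checked against marker genes.

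Plant miRNAs are cut from hairpin precursors by Dicer-like enzymes and guide Argonaute proteins to complementary mRNAs, which are then cleaved or less translated. DCL1, the main miRNA-producing Dicer in Arabidopsis, mostly releases products of 21 nt, while miRNAs of 22 nt are known for starting the production of secondary small interfering RNAs from their targets. In Arabidopsis, the first base helps to sort small RNAs among Argonautes, with U favouring AGO1, A favouring AGO2 and C favouring AGO5. No family, target or precursor locus was assigned to these sequences here, so they are named N1 to N23 by their rank in mean normalised read count (CPM, counts scaled to a common library size) over the 12 libraries.

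The set had 2 members of 20 nt (N7 and N21), 14 of 21 nt and 7 of 22 nt (N3, N9, N11, N12, N15, N17 and N19). The first base was U in 15 members, A in 4, C in 4 and G in 0. Among members of 21 nt, 11 began with U and 3 with A. Among those of 22 nt, 4 began with U, 1 with A and 2 with C, and both members of 20 nt began with C. GC content lay between 28.6 and 59.1%, with a median of 42.9% overall and of 50% in the 22 nt class. The members had 22 distinct sequences and 21 distinct seeds, the seed being bases 2 to 8 counted from the 5′ end.

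The sequences that the results below turn on are those of the most abundant member of each length class (N1, N3 and N7), of the members that were near copies of each other, and of the members that passed the drought test in lateral roots. They are written 5′ to 3′ as the deposited table names them, with the seed in capitals.
N1: aGUGGAAGgauuggaaagaca
N3: aAAUGGGUgcguuggcaagaag
N7: cUUCUGUUagcucuuaugga
N21: cUUCUGUUagcucuuaugga
N12: uCGGUAAUgauuuuguggaguc
N19: uCGGUAAUgauuuucuggaguc
N2: uUUGGAAAcgcacuugaaucg
N4: uUAGUCCAagacucggccaca
N8: uUAGAUUCacgcacaaacucu
N9: uUGCCGAAuccgcccauuccua
N11: cGUGAUAUugguucggcucuuc
N13: uUUUAAGAacucuauaggauc
N20: uUUCAGAAugagaggcaaguc
N22: aCUAUUGUggagcaccugcuc
N7 and N21 were listed as separate rows under the same sequence. N12 and N19 shared a seed and differed by the substitution G15C, with N12 given first and positions counted from the 5′ end. No other pair of members shared a seed.

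The total count per library lay between 160039 and 1267473, and the 16 nt sequence took a large and uneven part of it. It held 83.7 to 86.2% of the counts in LR-DS, against 34.1 to 60.6% in LR-CT, and 72.6 to 83.4% in TR-DS, against 55.1 to 89.1% in TR-CT. Its part in the drought differences was not tested beyond the repeat without it that is given with the lateral root result. LR-DS replicate 3 had the smallest total, 160039 counts. In its group this library stood apart in the share of the unannotated miRNAs, as did TR-DS replicate 2 in its own. The shares in TR-CT were spread, with replicate 3 the lowest. Reads carried no molecular identifiers and are not independent molecules, so intervals on shares and detection floors describe counting error alone.

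The unannotated miRNAs of 20 to 22 nt made up a sizeable part of the counts that remained once the 16 nt sequence was left out. Their share was 20.6, 19.5 and 51.8% in LR-DS replicates 1, 2 and 3, against 38.1, 27.9 and 32.3% in LR-CT. In taproots it was 10.3, 51.8 and 5.32% in TR-DS, against 31.5, 45.5 and 14.5% in TR-CT. The 95% Wilson intervals of these shares were narrow next to the spread between replicates, from 51.2 to 52.4% in the smallest library. Drought and control libraries overlapped in both root types. The group means were 30.6% ± 18.3 in LR-DS, 32.8% ± 5.10 in LR-CT, 22.5% ± 25.5 in TR-DS and 30.5% ± 15.6 in TR-CT (SD, n = 3 each). On the log2 scale, the mean share differed by -0.24 between LR-DS and LR-CT, by -0.70 without LR-DS replicate 3 and by 0.0062 without LR-DS replicate 2. With all counts as the denominator, the 16 nt sequence included, this difference was -2.05, and the share was 2.84, 2.73 and 8.44% in LR-DS, against 15.0, 18.4 and 16.8% in LR-CT.

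**Figure D1:**
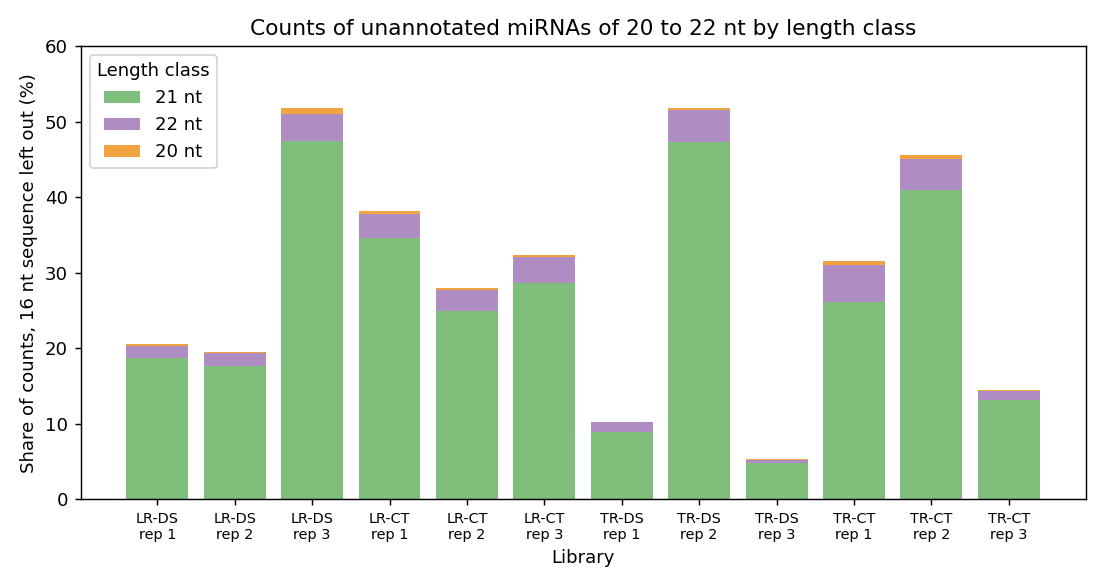
Stacked bars give, for each of the 12 libraries, the percentage of counts (16 nt sequence left out) that fell on unannotated miRNAs of 21, 22 and 20 nt. The 21 nt class filled most of every bar, and LR-DS replicate 3 and TR-DS replicate 2 reached 51.8%, against 5.32% in TR-DS replicate 3.

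In percentage points, the proportions of the length classes within the set varied less within each group than the total share did. For the small 20 nt and 22 nt classes, this does not mean a smaller spread relative to their means. The 21 nt class held 90.9% ± 0.744 of the unannotated miRNA counts in LR-DS, 89.6% ± 1.05 in LR-CT, 89.2% ± 2.18 in TR-DS and 88.0% ± 4.27 in TR-CT (SD, n = 3 each). The 22 nt class held 7.92% ± 1.13 in LR-DS, 9.75% ± 1.26 in LR-CT, 9.70% ± 1.90 in TR-DS and 10.7% ± 4.20 in TR-CT. The 20 nt class held 1.21% ± 0.387 in LR-DS, 0.689% ± 0.205 in LR-CT, 1.05% ± 0.401 in TR-DS and 1.22% ± 0.0750 in TR-CT. These proportions are descriptions of sums that a few members fill, and no test was run on them.

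Abundance was concentrated in the first ranks. Summed over the 12 libraries, in which those of LR-CT weigh most, N1 supplied 44.2% of the unannotated miRNA counts, N2 31.6%, N3 8.20% and N4 7.69%. Within libraries N1 took 57.0, 60.1 and 56.4% in LR-DS, against 45.9, 32.0 and 37.5% in LR-CT. In LR-CT replicate 2, N2 exceeded N1 with 40.6%. The mean level over the 12 libraries was 34647 CPM for N1, 19254 CPM for N2 and 28.1 CPM for N23, the last in rank. The most abundant member of 22 nt, N3, averaged 5577 CPM, and the more abundant member of 20 nt, N7, averaged 652 CPM. CPM counts of different members are not corrected for how well each sequence is ligated and amplified, so the ranks describe reads and not molecules.

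**Figure D2:**
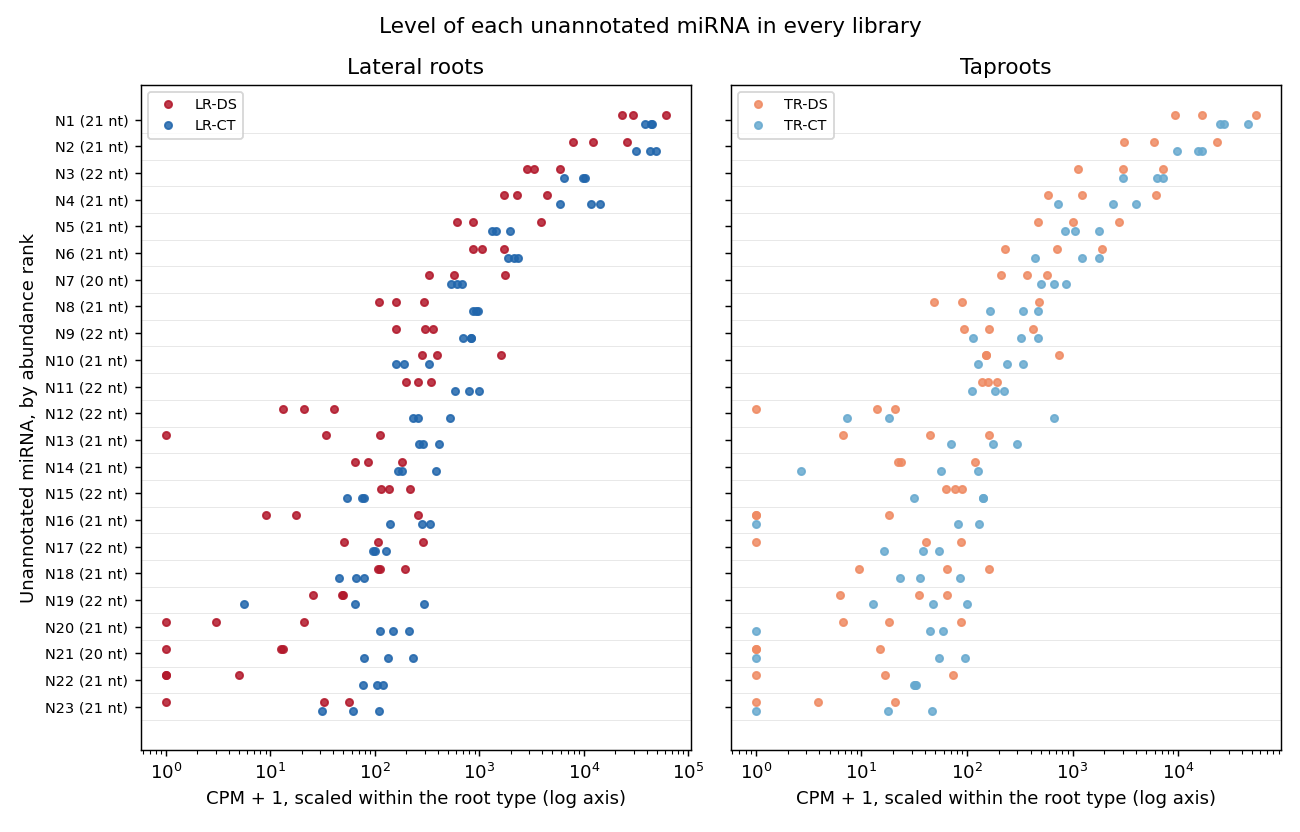
Each point is 1 library, placed by its CPM plus 1 on a log axis, for the 23 unannotated miRNAs in rank order from top to bottom, with drought libraries above control libraries in every row. In lateral roots (left panel) the LR-DS points of 12 members lie wholly to the left of the LR-CT points, and in taproots (right panel) the points of every member overlap between TR-DS and TR-CT.

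All 23 members had at least 1 read in every group, although N22 stayed below the detection floor of 3 counts in each LR-DS library, with 2, 0 and 0 counts. In all 3 libraries of a group, 18 members were detected in LR-DS, 23 in LR-CT, 17 in TR-DS and 19 in TR-CT. With a minimum of 10 counts these numbers were 14, 22, 12 and 15. Single libraries held 19 to 22 members in LR-DS, 23 in LR-CT, 20 to 21 in TR-DS and 19 to 23 in TR-CT. Depth differed between libraries. Thinned to the smallest total of 160039 counts, the expected number per library was 19 to 21.4 in LR-DS, 22.7 to 23 in LR-CT, 18.6 to 20.9 in TR-DS and 17.9 to 23 in TR-CT. The thinned totals still held the 16 nt sequence, which took 83.7 to 86.2% of LR-DS counts and 34.1 to 60.6% of LR-CT counts. Fewer reads were therefore left for the other rows in LR-DS, and depth was not made equal for the unannotated miRNAs. By class, 1 of the 2 members of 20 nt, 9 of the 14 of 21 nt and 5 of the 7 of 22 nt had reads in all 12 libraries.

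Drought stress in lateral roots was accompanied by lower levels of many unannotated miRNAs. Of the 23, 10 fell and 0 rose at a false discovery rate (FDR) threshold of 0.05 in the edgeR quasi-likelihood test of LR-DS against LR-CT, with FDR values adjusted over all rows of the table. In the same test, 24 of 75 rows passed, which is 32%, with 22.7% lower and 9.33% higher. Of the 51 known miRNAs, 7 fell and 6 rose. The median log2FC (log2 of LR-DS over LR-CT) was -1.43 over the unannotated miRNAs, -0.29 over all 75 rows and 0.05 over the known miRNAs. Of the unannotated miRNAs, 17 had a log2FC below 0 and 6 above 0, beside 41 below and 34 above over all 75 rows. Those past the FDR were 1 of 2 members of 20 nt, 6 of 14 of 21 nt and 3 of 7 of 22 nt. Samples were bulk root tips, in which fewer cells of a type and less RNA per cell cannot be told apart.

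**Figure D3:**
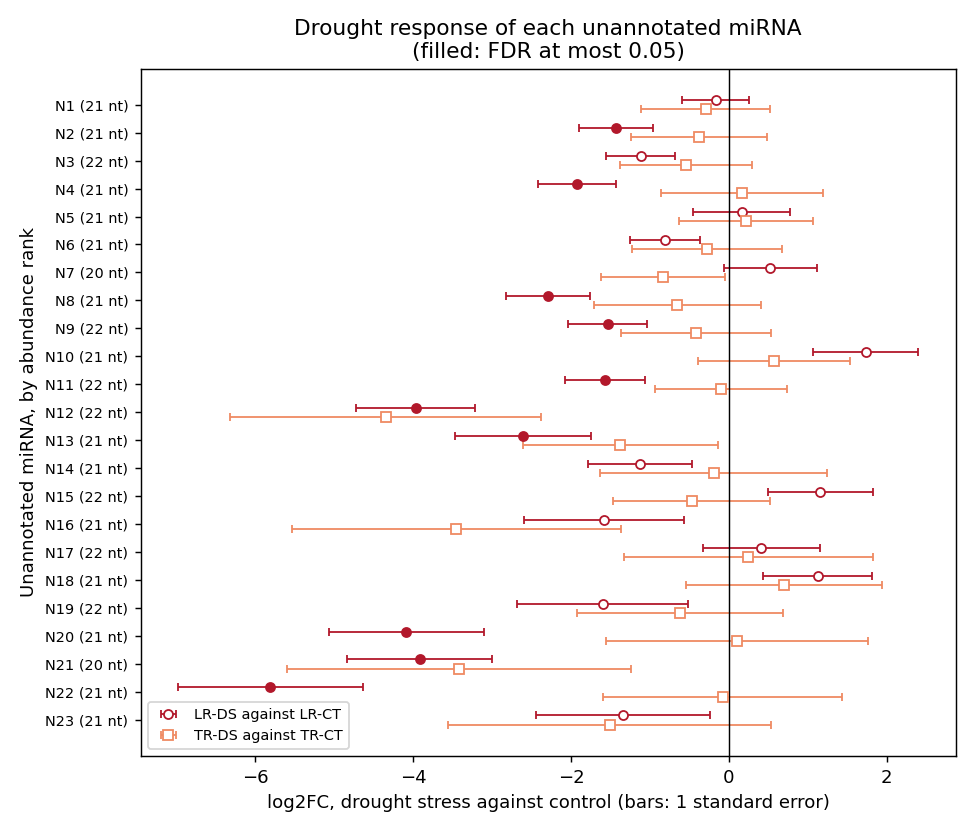
Points give the log2FC of drought stress against control for each unannotated miRNA, circles for lateral roots and squares for taproots, with bars of 1 standard error, and filled points passed an FDR of 0.05. The 10 filled circles lie between -5.81 and -1.43, no square is filled, and the taproot bars are mostly longer than the lateral root bars.

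The abundant members differed in whether the drought and control libraries overlapped. N1 (21 nt, first base A) had 29584, 23361 and 60812 CPM in LR-DS, against 45389, 38339 and 44127 CPM in LR-CT, with a log2FC of -0.17 (SE 0.43, FDR 0.792). N2 (21 nt, first base U) had 12151, 7813 and 25705 CPM in LR-DS, against 31727, 48596 and 42685 CPM in LR-CT. Every LR-DS value of N2 lay below every LR-CT value, while those of N1 overlapped, and N2 fell by 1.43 on the log2 scale (SE 0.47, edgeR FDR 0.0294). N3 (22 nt) had 3318, 2879.7 and 5977 CPM in LR-DS, against 6460.3, 9799 and 10178 CPM in LR-CT, without overlap, but its log2FC of -1.12 (SE 0.43) missed the threshold with an FDR of 0.0592. N4 (21 nt) fell by 1.93 (SE 0.49, FDR 0.00902). Its levels were 2281, 1735 and 4413 CPM in LR-DS, against 5930.3, 14380.0 and 11699 CPM in LR-CT. N5 (21 nt), with 861, 612 and 3871 CPM in LR-DS and 1981, 1454 and 1319.9 CPM in LR-CT, spanned its controls on both sides (log2FC 0.16, SE 0.61, FDR 0.869).

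In the middle ranks, N8, N9, N11 and N13 were lower in LR-DS, again with no overlap between the groups. N8 (21 nt) had 294, 109 and 159.6 CPM in LR-DS, against 928, 870.4 and 979 CPM in LR-CT, a log2FC of -2.30 (SE 0.53, edgeR FDR 0.00652). Its control libraries lay close together, and the highest drought library stayed far below the lowest of them. N9 (22 nt) had 299.8, 160.0 and 359 CPM in LR-DS, against 698, 827 and 833 CPM in LR-CT (log2FC -1.54, SE 0.51, FDR 0.0294). N11 (22 nt) had 346, 196 and 255 CPM in LR-DS, against 582, 794 and 997 CPM in LR-CT (log2FC -1.57, SE 0.50, FDR 0.0292). Both of these 22 nt miRNAs fell by a similar amount. N13 (21 nt) was less even among drought libraries, with 111, 33.0 and 0 CPM in LR-DS, the last from 0 counts, against 409, 286 and 265 CPM in LR-CT (log2FC -2.61, SE 0.86, FDR 0.0294).

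The largest log2FC values belonged to members of low abundance. N12 (22 nt) had 6, 12 and 5 counts in LR-DS, against 266, 684 and 393 counts in LR-CT, which is 12.2, 19.8 and 39.9 CPM against 229.6, 527 and 259.9 CPM. Its log2FC was -3.97 (SE 0.76, edgeR FDR 0.00331), and it was read in every lateral root library. N20 (21 nt) had 1, 12 and 0 counts in LR-DS, against 130, 272 and 223 in LR-CT (log2FC -4.09, SE 0.98, FDR 0.00735). N21 (20 nt) had 6, 7 and 0 counts in LR-DS, against 266, 100 and 201 in LR-CT (log2FC -3.92, SE 0.92, FDR 0.00652). N22 (21 nt, first base A) had 2, 0 and 0 counts in LR-DS, against 89, 155 and 156 in LR-CT, the most extreme contrast of the set. Its fitted log2FC of -5.81 (SE 1.17, FDR 0.00331) rests on 2 drought reads. The ratio of its summed counts, scaled by library sizes and the TMM factors of the test, was 0.0162 in LR-DS over LR-CT. Its exact 95% interval was 0.00195 to 0.0589, for counting error only.

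Members with a log2FC above 0 were few, and none of them passed the FDR. N10 (21 nt) had 393, 284 and 1596 CPM in LR-DS and 328, 158 and 189 CPM in LR-CT, with overlapping groups and its high value in LR-DS replicate 3 (log2FC 1.73, SE 0.67, FDR 0.0592). N15 (22 nt) had 136, 114 and 215 CPM in LR-DS, against 53.5, 77.0 and 74.7 CPM in LR-CT, without overlap (log2FC 1.16, SE 0.67, FDR 0.201). N18 (21 nt) likewise lay above its controls in every library (log2FC 1.12, SE 0.69, FDR 0.223). In all, 12 of 23 unannotated miRNAs were lower and 2 higher without overlap, where 32% and 14.7% of all rows were, or 46.7% in either direction. The 12 included all 10 that passed the test. N10, N15 and N18 passed the threshold as higher under DESeq2, which called 14 unannotated miRNAs, 3 higher and 11 lower, beside 31 of all 75 rows, 14 higher and 17 lower.

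How far these calls held depended on the libraries and on the fit. In 1 fit of all 12 libraries, which takes a common spread from both root types, 0 of the 23 and 0 of all 75 rows passed. Of the 23, 8 had an unadjusted p under 0.05 there. The number over all rows was not counted, so this 8 cannot be read as particular to the members. Leaving out 1 library at a time gave 6 to 12 calls. The 6 came without LR-DS replicate 2, where 21 of all 75 rows passed, and the 12 without LR-DS replicate 3, where 32 passed. Without LR-DS replicate 1, 7 passed as lower and 2 (N15 and N18) as higher, beside 12 lower and 11 higher over all rows. All other calls with a library left out were lower. N8, N12, N20, N21 and N22 passed in each of the 6 fits with 1 library left out. The log2FC of N20 ranged from -6.55 (without LR-DS replicate 2) to -2.94 (without LR-DS replicate 1) in them, that of N22 from -9.48 (without LR-DS replicate 1) to -5.01, and that of N2 from -1.82 to -0.91. N13 ranged from -3.40 without LR-DS replicate 1 to -2.12 without LR-DS replicate 3, and N12 from -4.16 to -3.13 without LR-DS replicate 1. N4 ranged from -2.22 to -1.36, and N8, N9, N11 and N21 moved less than N4. With the 16 nt sequence left out before scaling, 7 fell and 1, N15, rose, beside 12 lower and 10 higher among all 74 rows. N2, N9 and N13 no longer passed there, with log2FC values of -0.98, -1.12 and -2.30. N21 has the same sequence as N7, and with both rows summed that sequence did not pass.

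In taproots the same comparison gave no call. The edgeR test of TR-DS against TR-CT passed 0 of 23 unannotated miRNAs, and 0% of the 75 rows, at an FDR of 0.05. An unadjusted p under 0.05 was reached by 0 unannotated miRNAs and by 3 of the 75 rows. DESeq2 called 0 unannotated miRNAs, with no FDR given for N12, and 1 of the 75 rows, which was higher in TR-DS. The log2FC (TR-DS over TR-CT) was below 0 for 17 members and above 0 for 6, with a median of -0.38. Over all 75 rows, 36 were below 0 and 39 above, with a median of 0.02. The members' tally moved to 14 below and 9 above with RLE factors, and to 12 below and 11 above without TR-DS replicate 3. It was 22 below and 1 above with library size alone, and 23 below and 0 above without TR-CT replicate 1. No unannotated miRNA separated TR-DS from TR-CT without overlap, where 4% of all rows did, 2.67% lower and 1.33% higher. Standard errors ran from 0.78 to 2.18, against 0.43 to 1.17 in lateral roots, so the taproot libraries gave the less precise estimates.

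The members that fell in lateral roots took varied values in taproots. N2 had 5924, 23189 and 3046 CPM in TR-DS and 15344, 16884 and 9693 CPM in TR-CT (log2FC -0.38, SE 0.86, FDR 0.997). N4 had 1221, 6185 and 584 CPM in TR-DS and 2398, 3978 and 729 CPM in TR-CT (log2FC 0.17, SE 1.02, FDR 0.997). N8 had 88.2, 485 and 47.5 CPM in TR-DS and 338, 473 and 163 CPM in TR-CT (log2FC -0.65, SE 1.06, FDR 0.997). In each of them TR-DS replicate 2 was high and the other two drought libraries were low. N11 varied less, with 191, 137 and 157 CPM in TR-DS and 225, 110.3 and 185 CPM in TR-CT (log2FC -0.10, SE 0.83, FDR 0.997). N9 had 162, 423 and 93.7 CPM in TR-DS and 321, 473 and 113 CPM in TR-CT (log2FC -0.42, SE 0.95). N13 had 5.69, 159.7 and 43.5 CPM in TR-DS and 177, 295 and 70.2 CPM in TR-CT (log2FC -1.38, SE 1.24).

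Members of low abundance were unevenly read among the taproot libraries. N12 had 7, 0 and 10 counts in TR-DS and 754, 5 and 10 in TR-CT, so that its log2FC of -4.35 (SE 1.97, FDR 0.997) came from TR-CT replicate 1. Without that library the log2FC of N12 was -0.32. N21 had 0, 5 and 0 counts in TR-DS and 60, 74 and 0 in TR-CT (log2FC -3.42, SE 2.18), and its log2FC was -8.15 without TR-DS replicate 2 and -2.53 without TR-CT replicate 2. N20 had 2, 31 and 13 counts in TR-DS and 49, 46 and 0 in TR-CT (log2FC 0.10, SE 1.66). N22 had 0, 26 and 12 counts in TR-DS and 35, 25 and 18 in TR-CT (log2FC -0.08, SE 1.52). Over the 10 members that fell in lateral roots, 8 taproot log2FC values were below 0 and 2 above. Over the 13 other members, 9 were below 0 and 4 above.

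The most abundant member of each length class also overlapped between the taproot groups. N1 (21 nt) had 16780 CPM, 54056 CPM and 9311 CPM in TR-DS, and 24686, 46299 and 27401 CPM in TR-CT (log2FC -0.30, SE 0.82). N3 (22 nt) had 2976, 7154 and 1120.0 CPM in TR-DS and 7134, 6283 and 3009 CPM in TR-CT (log2FC -0.55, SE 0.84). N7 (20 nt) had 367, 569 and 208 CPM in TR-DS and 672, 862 and 507 CPM in TR-CT (log2FC -0.84, SE 0.78). TR-DS replicate 2 was again the highest drought library in all of them. N5 had 1010.2, 2766 and 469.6 CPM in TR-DS and 856, 1765 and 1044 CPM in TR-CT (log2FC 0.21, SE 0.85).

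Whether drought changed the 2 root types differently was tested by an interaction term fitted to the 12 libraries together. At an FDR of 0.05, 0 of 23 unannotated miRNAs and 0% of all rows passed in edgeR. DESeq2 passed 0 unannotated miRNAs and 1 of all 75 rows, with an estimate below 0. In edgeR, 5 of all 75 rows had an unadjusted p under 0.05, and 1 of them was an unannotated miRNA. This was N22, whose log2FC in lateral roots was 4.89 lower than in taproots on the log2 scale of this fit (estimate -4.89, SE 1.96, FDR 0.378). A different response of the root types was therefore not shown for any unannotated miRNA. The 10 calls in lateral roots and 0 in taproots do not by themselves show that the responses differed.

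Between root types, no unannotated miRNA passed in either condition. In LR-CT against TR-CT, 0 of 23 and 0% of all rows passed. Of the members, 15 had a log2FC (LR-CT over TR-CT) above 0 and 8 below. Over all rows, 32 were above and 43 below. Without TR-CT replicate 3 the members' tally was 12 above and 11 below, and with library size alone it was 21 above and 2 below. DESeq2 called 0 members and 1 of all 75 rows, which was higher in LR-CT. In edgeR, 5 of all 75 rows had an unadjusted p under 0.05, and 1 of them was a member. This was N11, with 753, 719 and 1023 CPM in LR-CT, against 493, 179 and 202 CPM in TR-CT (log2FC 1.51, SE 0.56, edgeR FDR 0.430). N11 was among 6 members that were higher in LR-CT without overlap, while 0 were lower. Of all rows, 16% were higher and 5.33% lower, 21.3% in all. N22 was another, with 99.5, 108 and 106 CPM in LR-CT, against 67.7, 51.3 and 33.7 CPM in TR-CT (log2FC 1.04, SE 0.59, FDR 0.445). Without TR-CT replicate 3, 1 unannotated miRNA, N15, passed as lower in LR-CT, where 2 of all 75 rows passed.

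Under drought stress, LR-DS against TR-DS likewise gave 0 of 23 calls and 0% of the 74 rows tested, with 20 log2FC values (LR-DS over TR-DS) above 0 and 3 below, beside 39 above and 35 below over all rows. DESeq2 called 0 as well. The members' tally was 14 above and 9 below with RLE factors, and 11 above and 12 below without TR-DS replicate 3. It was 21 above and 2 below without TR-DS replicate 2. N16 (21 nt) was the only member with an unadjusted p under 0.05, beside 4 of all 74 rows. It had 4, 10 and 32 counts in LR-DS, against 0, 0 and 13 counts in TR-DS (log2FC 3.80, SE 1.74, edgeR FDR 0.756). That log2FC was 0.87 without LR-DS replicate 3 and 7.72 without TR-DS replicate 3. Without overlap, 2 members were higher in LR-DS, beside 6.76% of all rows. These comparisons use the same libraries as the drought comparisons and are not independent of them.

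The rows that share a sequence gave different drought values. N7 had 567, 329.9 and 1764 CPM in LR-DS and 686, 608 and 537 CPM in LR-CT (log2FC 0.53, SE 0.59, edgeR FDR 0.508), with overlapping groups, while N21 fell as given above. N21 made up 2.10, 3.38 and 0% of the joint counts of N7 and N21 in LR-DS, against 25.1, 11.3 and 19.8% in LR-CT. The 0% stood for 0 of 221 joint counts, for which the floor of 3 counts is 1.36% and the upper 95% Wilson bound 1.71%. Every LR-DS share lay below every LR-CT share, and the log2 ratio of N21 to N7 was 4.13 lower in LR-DS than in LR-CT (difference -4.13, exact permutation p = 0.1, two-sided, n = 3 each). This is the smallest p that 3 against 3 libraries allow, and it was 0.2 after adjustment over the 4 such tests. In taproots the share was 0, 2.40 and 0% in TR-DS, against 7.31, 9.81 and 0% in TR-CT (difference in log2 ratio -1.83, exact permutation p = 0.4, adjusted p = 0.533). With both rows summed, the joint log2FC in lateral roots was 0.23 (SE 0.59, FDR 0.790). How the counting divided reads between these rows is not given in the sources used here, so the levels of N7 and N21 as separate miRNAs are uncertain.

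**Figure D4:**
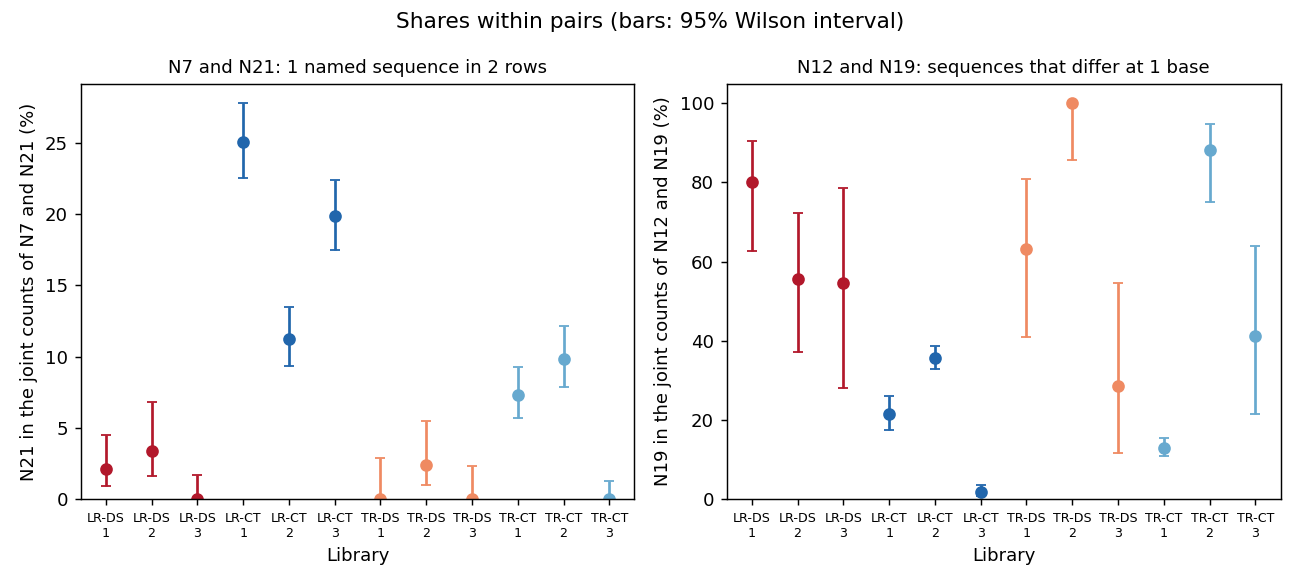
Points give the percentage of N21 in the joint counts of N7 and N21 (left panel) and of N19 in those of N12 and N19 (right panel) in each of the 12 libraries, with 95% Wilson intervals as bars. N21 took 0 to 3.38% in LR-DS, against 11.3 to 25.1% in LR-CT, and N19 took 54.5 to 80% in LR-DS, against 1.75 to 35.8% in LR-CT.

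The pair that differs at position 15 had the opposite order, with the less abundant row taking the larger share under drought stress in lateral roots. N19 had 24, 15 and 6 counts in LR-DS, against 73, 381 and 7 in LR-CT, where LR-CT replicate 2 was high, and its log2FC was -1.60 (SE 1.09, FDR 0.278). N19 made up 80, 55.6 and 54.5% of the joint counts of N12 and N19 in LR-DS, against 21.5, 35.8 and 1.75% in LR-CT. The log2 ratio of N19 to N12 was higher by 3.63 in LR-DS than in LR-CT (exact permutation p = 0.1, adjusted p = 0.2, two-sided, n = 3 each), again the smallest p this design allows. Joint counts in LR-DS were few, at 30, 27 and 11. In taproots N19 had 12, 23 and 4 counts in TR-DS and 113, 37 and 7 in TR-CT. It took 63.2, 100 and 28.6% in TR-DS, against 13.0, 88.1 and 41.2% in TR-CT, with overlapping groups (difference 1.84, exact permutation p = 0.6, adjusted p = 0.6). How reads with a mismatch were assigned is not given in the sources used here, so values of N12 and N19 carry the same uncertainty.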

How the data were processed

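Small RNA libraries of 12 root tip samples, 3 in each of LR-DS, LR-CT, TR-DS and TR-CT, were analysed. Per the methods, the authors selected 18 to 30 nt, used Cutadapt for trimming, dropped reads shorter than 15 nt, ran FastQC, and mapped and counted them with ShortStack, which runs Bowtie, using miRBase sequences. The genome build and tool versions for this step are not given in the sources used here. The table was deposited as raw, whole-number counts of reads for each row. Total counts were 160039 to 1267473 per library. Groups and replicate numbers came from sample titles. The description of LR-DS replicate 3 names the column of replicate 2, and it was matched by its title and library name.

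Members and lists were chosen with earlier results of these data known. Tests were run with edgeR 4.0.16 under R 4.3.3 (TMM factors, glmQLFit, glmQLFTest) over every row with at least 1 count in the 6 libraries compared, with Benjamini-Hochberg adjustment and an FDR of at most 0.05. The interaction used all 12 libraries. The standard error was the absolute log2FC over the square root of F. CPM values beside a comparison were scaled within its 6 libraries. For pairs of near copies, log2 ratios had a pseudocount of 0.5 and were compared by the two-sided exact permutation test over 20 arrangements. A difference between replicates exceeded sampling noise in every group. Whether replicates came from separate plants is not stated, so p-values measure the spread between these samples. Named with per-library values were the 5 most abundant members, the most abundant of each length class, members past the FDR, near copies, and members with at most 3 counts in every library of a group. N10, N15, N16 and N18 were named after their values were seen. The tests were tried on simulated counts first. Alternatives were library size alone, RLE factors, removal of the 16 nt sequence, DESeq2 1.42.0, filterByExpr, a replicate block, 1 fit of 12 libraries, summed rows of 1 sequence, other denominators and minimum counts, and each library left out. Figures were drawn with matplotlib 3.10.9. RNA-seq and degradome data were not used here.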

Additional observations from a re-analysis of the deposited data

How the results depend on the processing

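Of 419 alternative log2FC values of named members, 361 kept direction and side of the threshold, 31 lost the call, 16 gained one and 11 changed sign. In LR-DS against LR-CT, the 10 calls became 0 in 1 fit of all 12 libraries, and 6 to 12 with each library left out in turn. They were 14 with library size alone (of 35 rows called in all, against 24), 9 with RLE factors (of 23), 8 without the 16 nt sequence (of 22), 14 with DESeq2 (of 31), 11 with filterByExpr (of 25) and 9 with summed rows (of 23). Higher calls were 1 without the 16 nt sequence, 3 with DESeq2 and 1 (N10) with filterByExpr, beside 10, 14 and 8 over all rows. Row by row, the log2FC shifted by a median of -1.16 with library size alone, 0.25 with RLE factors and 0.45 without the 16 nt sequence. N8, N12, N20, N21 and N22 passed in each of these fits other than the 12-library fit and, for N21, the summed rows. In the other comparisons the count was 0, except in LR-CT against TR-CT with each library left out, where it was 0 to 1. The 1 was N15, without TR-CT replicate 3. Not all 23 members were covered: filterByExpr left 19 to be tested in taproots and 18 in LR-DS against TR-DS. DESeq2 gave no FDR for N12 in taproots. With all counts as denominator, the log2 difference of shares between LR-DS and LR-CT was -2.05 for all members, -1.24 for 20 nt, -2.03 for 21 nt and -2.35 for 22 nt. The cause was not tested beyond the change of denominator. Signs changed in LR-DS against LR-CT for uncalled members alone: with library size alone N5 was -0.87, N7 -0.53 and N17 -0.66, and without the 16 nt sequence N1 was 0.23. With each library left out, N1 ranged from -0.48 to 0.33, N5 from -0.94 to 0.78, N7 from -0.30 to 1.08, N17 from -0.37 to 0.96 and N19 from -2.16 to 0.24. As a ratio to N1, 1 member separated the taproot groups, against 0 by CPM. Depth limits the members below about rank N12, several of which had 0 counts in single libraries.

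Replicate numbers are shared between groups. Same-numbered libraries deviated from their group means with correlations of -0.25 to -0.02 in lateral roots and -0.27 to 0.71 in taproots. With so few libraries, these values cannot decide whether same-numbered libraries share plants or a batch. With the replicate block, 9 unannotated miRNAs passed in lateral roots (of 17 rows in all), 8 of them among the 10, with N9 and N11 lost and N16 gained, and N5 was -0.36. The block left the count at 0 in the other comparisons.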

Other observations

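Levels relative to N1 within the same library do not depend on the scaling between libraries, and this readout was added after the data were seen. Per 1000 counts of N1, N2 had 411, 335 and 423 counts in LR-DS, against 699, 1268 and 967 in LR-CT. Of the 22 other members, 12 were lower and 3 higher relative to N1 in LR-DS without overlap. The 12 included the 10 that passed the drought test, which used the same counts and is not independent of this readout. Over all 74 rows other than N1, 25.7% were lower and 14.9% higher in this way. The 3 higher were N10, N15 and N18. In taproots 0 members were lower and 1 was higher without overlap, beside 0% and 4.05% of all rows. A change of N1 itself would shift these ratios together, and they describe unequal change between members, not which of them changed.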
